A study of Homo sapiens with 12 samples.

Results

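The signalling core from TNF receptor 1 to the IκB kinase (IKK) complex was followed here as 10 genes. They were TNFRSF1A, which encodes the receptor, the adaptor genes TRADD and RIPK1, the TAK1 complex genes MAP3K7, TAB1, TAB2 and TAB3, and the IKK genes CHUK, IKBKB and IKBKG. The members were named by their place in the pathway and not by a rule on measured values. They were, however, chosen with earlier results of these data known. All 10 were found among the 33093 genes kept from the count table, and all 10 were among the 14383 genes with enough reads to be tested.

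RNA was sequenced from HEK293T cells, a human embryonic kidney line, in 4 groups of 3 samples. WT cells and NFKB1 S80A cells were left untreated or received 10 ng/ml TNFα for 3 h before RNA extraction. In NFKB1 S80A cells the endogenous NFKB1 gene was edited with CRISPR/Cas9 so that serine 80 of the p50 subunit of NF-κB became alanine, and cells were grown out from single cells by serial dilution. The number of clones behind the 3 samples of each group was not given in the sources used here, so the edit and the history of the clones cannot be told apart in a comparison of genotypes. A count per gene does not show the edited base, and the genotypes therefore rest on the labels.

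When TNFα binds TNF receptor 1, the death domain of the receptor recruits TRADD and RIPK1, and ubiquitin chains are built on the assembled complex. TAB2 and TAB3 bind those chains and bring in the kinase TAK1, encoded by MAP3K7, while NEMO, encoded by IKBKG, brings in the IKK kinases IKKα (CHUK) and IKKβ (IKBKB). TAK1 activates IKKβ, which marks the inhibitor IκBα for degradation and so frees NF-κB dimers to enter the nucleus. These steps run on protein already present in the cell, and what is described below is the level of the transcripts.

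The library totals ran from 15624878 to 20889577 counts. Markers fixed for the cell line were present, with VIM between 10059 and 15699 counts and CDH2 between 1738 and 3273, whereas PAX2 and LHX1 held only 8 to 50 counts. Of 7 markers of leukocytes, endothelium and fibroblasts, PTPRC and CD3E were at 0 in every sample, PECAM1, CDH5 and DCN held at most 2 counts and CD14 at most 9. COL1A1 was the exception, with 242 to 313 counts in WT cells and 104 to 146 in NFKB1 S80A cells, and its part in the differences between genotypes was not tested. Libraries also differed in how strongly they favoured GC-rich transcripts. The log2 difference between genes of 62.1% and 38.4% GC, set against the mean of all libraries, lay between -0.01 and 0.16 in 9 libraries. It was -0.21 and -0.26 in WT TNFα replicates 1 and 2 and -0.31 in NFKB1 S80A untreated replicate 2, which also stood furthest from the other samples of its group.

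With TNFα 1 of the 10 genes passed the test in NFKB1 S80A cells, where 1.26% of all genes did. IKBKB, the gene for the kinase that acts on IκBα, rose 1.37-fold in NFKB1 S80A cells, and its 3 TNFα samples lay above its 3 untreated samples in WT cells as well. The call in NFKB1 S80A cells was lost without TNFα replicate 1 of that genotype, and when the WT samples were left out of the fit. No member passed the test for TNFα in WT cells, where 0.688% of all genes did. Between the genotypes with TNFα, CHUK was lower in NFKB1 S80A cells, where 7.36% of all genes passed. That call was kept in 3 of the 12 fits that left out 1 sample. No member passed between untreated genotypes, where 6.26% of all genes did. Averaged over the treatments CHUK was lower and RIPK1 higher, where 16.7% of all genes passed. RIPK1 passed in neither treatment alone, and its averaged call was kept in 6 of those 12 fits. Each difference was less than 1.3-fold. In these bulk samples, fewer cells that express a gene and less RNA per cell cannot be told apart. The receptor, TRADD, IKBKG and all 4 genes of the TAK1 complex passed no test in the 7 comparisons as fitted here. The comparisons are given as log2 fold changes from edgeR's quasi-likelihood test, fitted to all 12 samples, with p-values adjusted over all genes tested by the Benjamini-Hochberg method and a threshold of 0.05.

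The promoters of the core were searched because NF-κB itself raises several genes of this pathway. RefSeq (GRCh38.p14) windows from 250 bases before to 50 bases after the transcript start were found for 8 of the 10 members. TRADD and IKBKB were not matched. A κB motif of GGG, 2 bases of any kind and TTTCC, read on both strands, was in none of the windows of the 8 members, against 2.33% of the 27305 genes with a window. The looser κB consensus, read on both strands and overlapping the stricter motif, was found in 7.09% of those genes and in 1 member, TAB2. Set beside it are sites from 6 other genes of the pathway that rose with TNFα in WT cells, and which were picked after their values were seen. For these genes only matches to the stricter motif are printed, and looser matches, such as 1 in CYLD that begins at a transcript start, are not, so the sites do not show how TAB2 differs from them. Each is printed on the strand of its gene with 10 bases on either side, and the capitals mark the match.
TAB2 (chr6:149318312-149318321): cgagcgcctaGGAGAGCCCCgggtggggga
NFKBIA (chr14:35404821-35404830): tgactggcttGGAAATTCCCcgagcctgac
TNFAIP3 (chr6:137867192-137867201): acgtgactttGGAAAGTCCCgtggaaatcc
TNFAIP3 (chr6:137867204-137867213): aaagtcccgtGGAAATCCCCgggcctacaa
NFKB1 (chr4:102501310-102501319): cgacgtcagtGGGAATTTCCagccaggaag
CYLD (chr16:50741897-50741906): ttgacagagcGGAAAGTCCCttcggccggc
OPTN (chr10:13100071-13100080): gcggggcccgGGAAATTCCCcggcgcgggc
TNIP1 (chr5:151081067-151081076): ccagtctccgGGGACTTTCCcaggggtggg
The TAB2 match reads GGGGCTCTCC on the opposite strand and begins 12 bases after a transcript start. A match of letters is a description and not a measured binding site.

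**Figure D1:**
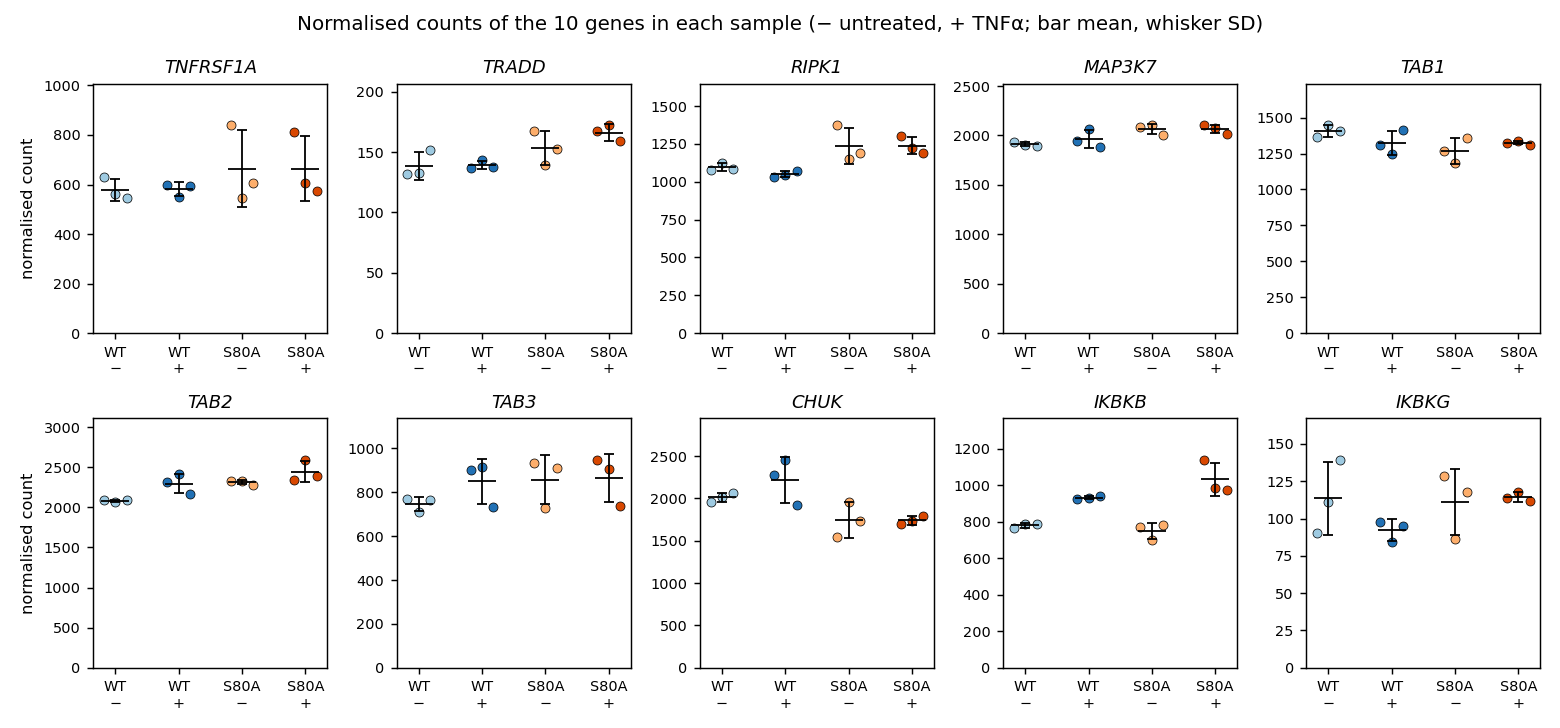
Normalised counts (vertical axis, each panel from 0) of the 10 genes in each of the 12 samples, with TNFα marked + and untreated marked −. Points are samples, bars are group means and whiskers are SD (n = 3). IKBKB samples with TNFα lie above the untreated samples in both genotypes, and CHUK samples of NFKB1 S80A cells with TNFα lie below the WT samples with TNFα.

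TNFRSF1A, the receptor through which TNFα signals in most cells, lies at chr12:6328757-6342114 on the minus strand, with a canonical transcript of 10 exons. Its normalised counts, which are counts scaled to a common library size, were 630.5, 560.0 and 547 in untreated WT samples and 599, 551 and 595 with TNFα. NFKB1 S80A samples held 840, 547 and 607 untreated and 814, 605 and 572 with TNFα. Replicate 1 of NFKB1 S80A cells stood above the other samples of its group in both treatments, and all groups overlapped. The log2 fold change with TNFα was 0.01 (SE 0.15, edgeR adjusted p = 0.998) in WT cells and -0.00 (SE 0.15, adjusted p = 1) in NFKB1 S80A cells. Of the 10 genes TNFRSF1A had the highest biological coefficient of variation, 13.1%, a value fitted over all 4 groups. The SD was 7.78% and 4.57% of the mean in WT cells without and with TNFα, and 23.3% and 19.7% in NFKB1 S80A cells. The 95% interval for TNFα in WT cells reached from -0.32 to 0.34, and its width rests on the spread in all groups and not in WT cells alone.

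TRADD, the adaptor that docks on the death domain of the receptor, lies at chr16:67154185-67159909 on the minus strand. It was measured from only 116 to 185 counts a sample. The mean normalised count was 138 ± 11.4 (SD, n = 3) in untreated WT cells and 139 ± 3.33 with TNFα, and 153 ± 14.2 and 166 ± 6.79 in NFKB1 S80A cells. With TNFα the 3 NFKB1 S80A samples (159 to 172) lay above the 3 WT samples (137 to 143). The log2 difference of 0.25 (SE 0.11) did not pass the test (edgeR adjusted p = 0.212).

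RIPK1, the kinase that carries many of the ubiquitin chains of the receptor complex, lies at chr6:3063824-3115187 on the plus strand. Its normalised counts were 1077, 1126 and 1084 in untreated WT samples and 1035, 1042 and 1075 with TNFα. NFKB1 S80A samples had 1374, 1151 and 1188 untreated and 1301, 1222 and 1192 with TNFα. Every NFKB1 S80A sample lay above every WT sample, and in WT cells the TNFα samples lay just below the untreated ones. The log2 difference between the genotypes was 0.18 (SE 0.08, edgeR adjusted p = 0.239) untreated and 0.24 (SE 0.08, adjusted p = 0.0911) with TNFα, neither of which passed. Averaged over the treatments RIPK1 was 1.15-fold higher in NFKB1 S80A cells (95% interval 1.06 to 1.26, log2 0.21, SE 0.06, adjusted p = 0.0217). That call was lost without WT untreated replicate 1 or 3, WT TNFα replicate 1 or 2, NFKB1 S80A untreated replicate 1 or NFKB1 S80A TNFα replicate 1, where the log2 difference stayed between 0.17 and 0.20 and the adjusted p between 0.0516 and 0.0600. RIPK1 shares 330 bases of exon with an antisense transcript, and the strand setting of the counting was not given in the sources used here. TNFα left RIPK1 within 0.06 on the log2 scale of its untreated level in WT cells (-0.06, SE 0.08, adjusted p = 0.997) and at 0.00 (SE 0.08, adjusted p = 1) in NFKB1 S80A cells.

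The TAK1 complex is a kinase with partner proteins. MAP3K7, which encodes the kinase TAK1, lies at chr6:90513573-90587086 on the minus strand. It had the narrowest spread of the 10, with a biological coefficient of variation of 6.31%. Its mean normalised count was 1909 ± 20.1 (SD, n = 3) and 1965 ± 88.3 in WT cells without and with TNFα, and 2065 ± 55.1 and 2066 ± 43.4 in NFKB1 S80A cells. The TNFα log2 fold change was 0.04 (SE 0.07, edgeR adjusted p = 0.997) in WT cells and 0.00 (SE 0.07, adjusted p = 1) in NFKB1 S80A cells, with 95% intervals of -0.10 to 0.18 and -0.14 to 0.14. Untreated NFKB1 S80A samples (2002 to 2104) lay above untreated WT samples (1894 to 1932), with a log2 difference of 0.11 (SE 0.07) that did not pass the test (adjusted p = 0.367).

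TAB1, a subunit that activates TAK1, lies at chr22:39399778-39437060 on the plus strand. Its samples ranged from 1181 to 1447 normalised counts over the 12 libraries. Untreated NFKB1 S80A samples (1181 to 1359) lay just below untreated WT samples (1367 to 1447), and the log2 difference of -0.15 (SE 0.08, edgeR adjusted p = 0.312) did not pass. With TNFα the genotypes differed by 0.00 (SE 0.08, adjusted p = 0.995).

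TAB2 binds ubiquitin chains and links them to TAK1. The gene lies at chr6:149218641-149411613 on the plus strand. Its normalised counts were 2095, 2066 and 2086 in untreated WT samples and 2310.4, 2412 and 2167 with TNFα. The NFKB1 S80A samples had 2332, 2327 and 2281 untreated and 2344, 2591 and 2392 with TNFα. The groups did not overlap between untreated and TNFα samples in either genotype, nor between the genotypes untreated. None of these differences passed the test. The log2 fold change with TNFα was 0.14 (SE 0.07, edgeR adjusted p = 0.875) in WT cells and 0.08 (SE 0.07, adjusted p = 0.763) in NFKB1 S80A cells, and the untreated difference between the genotypes was 0.15 (SE 0.07, adjusted p = 0.236). Averaged over the treatments it was 0.12 (SE 0.05, adjusted p = 0.111), and this value passed with DESeq2 (0.13, adjusted p = 0.0491) and with GC correction (0.13, adjusted p = 0.0339).

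TAB3, the close relative of TAB2, lies at chrX:30827442-30975084 on the minus strand and was measured at 710.3 to 948 normalised counts. All groups overlapped, and the log2 differences ran from 0.01 to 0.20 with SE 0.12 in the 4 comparisons of a pair of groups. In 3 groups 1 sample lay well below the others, namely WT TNFα replicate 3 (732), NFKB1 S80A untreated replicate 2 (728) and NFKB1 S80A TNFα replicate 3 (739). The balance of the ubiquitin-binding partners was read as the ratio of TAB2 to TAB3 reads within a library, which no scaling can move. It ran from 2.47 to 3.24 over the 12 samples. The log2 ratio differed by -0.04 to 0.07 between groups (two-sided exact permutation p = 0.6 to 1, n = 3 against 3).

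IKBKB encodes IKKβ, the IKK kinase that phosphorylates IκBα in the canonical pathway. The gene lies at chr8:42271302-42332460 on the plus strand, with a canonical transcript of 22 exons. Its normalised counts were 765, 791 and 787 in untreated WT samples and 927, 932 and 941 with TNFα. In NFKB1 S80A cells they were 770.1, 702 and 783 untreated and 1139, 984 and 976 with TNFα. All 6 TNFα samples lay above all 6 untreated samples. IKBKB rose 1.37-fold in NFKB1 S80A cells (95% interval 1.22 to 1.55, log2 0.46, SE 0.08, edgeR adjusted p = 0.00833). In WT cells the fold was 1.19 (95% interval 1.06 to 1.35, log2 0.26, SE 0.08) and did not pass over all genes (adjusted p = 0.382). The difference between those responses was 0.20 on the log2 scale (SE 0.12, adjusted p = 0.911), so a stronger response in NFKB1 S80A cells was not shown. Averaged over the genotypes IKBKB rose 1.28-fold (95% interval 1.18 to 1.40, log2 0.36, SE 0.06, adjusted p = 0.00222). The call in NFKB1 S80A cells was lost without NFKB1 S80A TNFα replicate 1, the highest sample (log2 0.38, adjusted p = 0.0661), and when only the 6 NFKB1 S80A samples were fitted (log2 0.46, adjusted p = 0.141). The averaged call held in all 12 fits that left out 1 sample.

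CHUK encodes IKKα, the partner kinase of IKKβ. The gene lies at chr10:100188300-100229596 on the minus strand, with a canonical transcript of 21 exons. Its normalised counts were 1954, 2016 and 2067 in untreated WT samples and 2280.3, 2455 and 1924 with TNFα. In NFKB1 S80A cells they were 1540.2, 1961 and 1740 untreated and 1694, 1732 and 1798 with TNFα. Every NFKB1 S80A sample with TNFα lay below every WT sample of either treatment, whereas the untreated groups overlapped through NFKB1 S80A untreated replicate 2. With TNFα CHUK was at 0.784 of the WT level (95% interval 0.677 to 0.909, log2 -0.35, SE 0.10, edgeR adjusted p = 0.0460). Untreated, the log2 difference was -0.20 (SE 0.10) and did not pass (adjusted p = 0.274). Averaged over the treatments CHUK was at 0.825 of the WT level (95% interval 0.744 to 0.915, log2 -0.28, SE 0.07, adjusted p = 0.0137), and this call held in all 12 fits that left out 1 sample.

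The call for CHUK with TNFα was the least stable of those made. It was kept in 3 of the 12 fits that left out 1 sample, those without WT TNFα replicate 3 (log2 -0.44), whose labels disagree on its replicate number, NFKB1 S80A untreated replicate 1 or NFKB1 S80A untreated replicate 2, and was lost without any of the other 9 samples (adjusted p up to 0.199 without WT TNFα replicate 2, where the log2 difference was -0.28). CHUK is among the members poorest in GC (38.9% of its canonical transcript). The libraries that favoured GC-poor transcripts were those in which CHUK stood highest within its group: WT TNFα replicates 1 and 2 and NFKB1 S80A untreated replicate 2. Over the 12 libraries the Pearson correlation of log2 CHUK with that GC preference was -0.638. It was -0.255 for MAP3K7, -0.12 for TAB3 and -0.172 for TAB2, which are also poor in GC (38.9%, 40.5% and 42.7%). Among the members richer in GC it was 0.694 for TAB1, 0.559 for IKBKG and 0.439 for RIPK1. TNFRSF1A had 0.385, TRADD 0.374 and IKBKB 0.329. These values describe libraries that also differ in group. With each library corrected for GC content CHUK was lower in NFKB1 S80A cells by both tests, at log2 -0.29 untreated (adjusted p = 0.0128) and -0.23 with TNFα (adjusted p = 0.0409). RIPK1 then passed with TNFα (log2 0.24, adjusted p = 0.0468), and IKBKB rose with TNFα in NFKB1 S80A cells by 0.41 (adjusted p = 0.00716). Without NFKB1 S80A untreated replicate 2, the library that stood apart, the untreated difference of CHUK was -0.29 (adjusted p = 0.0763) and that of RIPK1 0.23 (adjusted p = 0.104). The rise of IKBKB with TNFα in NFKB1 S80A cells was then 0.41 (adjusted p = 0.0234).

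IKBKG encodes NEMO, the regulatory subunit that binds ubiquitin chains and holds the IKK kinases. The gene lies at chrX:154541199-154565046 on the plus strand. It was measured from only 72 to 139 counts a sample, and this count is uncertain. Of the 75-base windows of its canonical transcript, 52.6% also occur in the transcript of its copy IKBKGP1 on the same chromosome. Of 1245 such windows taken within its exons, 85.5% were found elsewhere on chromosome X, both in IKBKGP1 and outside it. How the counting treated reads that fit more than 1 place was not given in the sources used here. The mean normalised count was 113 ± 24.7 (SD, n = 3) and 92.2 ± 7.22 in WT cells without and with TNFα, and 111 ± 22.0 and 114 ± 3.23 in NFKB1 S80A cells. With TNFα the NFKB1 S80A samples (112 to 118) lay above the WT samples (83.9 to 97.6), with a log2 difference of 0.31 (SE 0.18) that did not pass the test (edgeR adjusted p = 0.326).

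The balance of the IKK kinases was read within each library as IKBKB reads per CHUK read. It was 0.392, 0.392 and 0.381 in untreated WT samples, and 0.407, 0.380 and 0.489 with TNFα. Among NFKB1 S80A samples it was 0.5, 0.358 and 0.450 untreated and 0.672, 0.568 and 0.543 with TNFα. The 3 NFKB1 S80A samples with TNFα lay above all other 9 samples. The log2 ratio of these samples exceeded that of untreated NFKB1 S80A samples by 0.45 and that of WT samples with TNFα by 0.49. Each had a two-sided exact permutation p = 0.1, the smallest that 3 samples against 3 allow, and 0.4 after adjustment over the 8 ratio tests. In WT cells TNFα moved the log2 ratio by 0.12 (exact permutation p = 0.4, n = 3 against 3), and untreated genotypes differed by 0.15 (exact p = 0.4). This ratio sets a GC-poor gene against one of 52.5% GC, and WT TNFα replicate 3 and NFKB1 S80A untreated replicate 2, which differ from the rest of their groups in GC preference, were the highest and the lowest of their groups. The part of GC preference in the ratio was not tested.

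**Figure D2:**
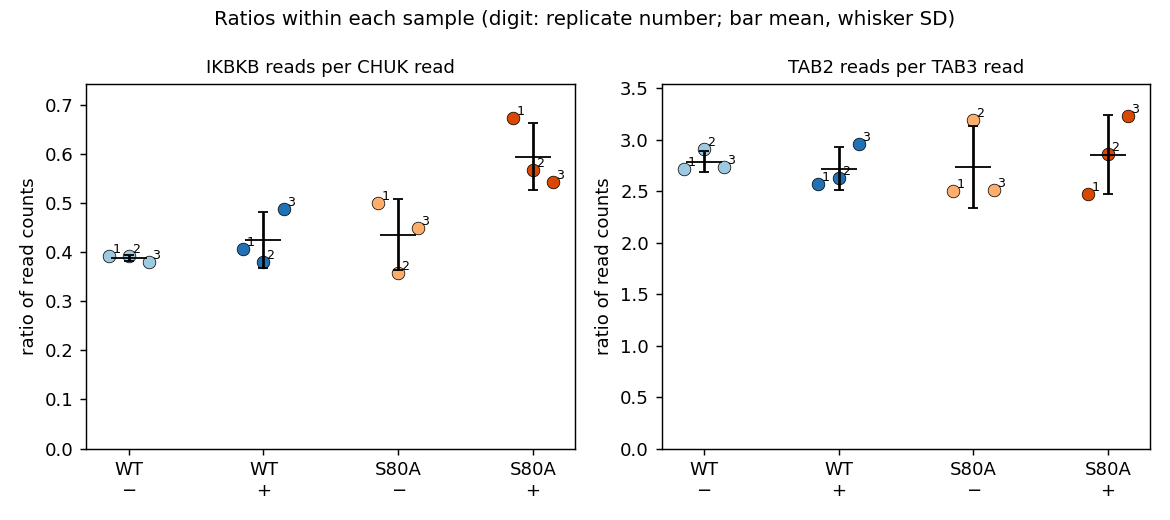
Ratio of read counts within each sample (vertical axis from 0) for IKBKB over CHUK and for TAB2 over TAB3 in the 4 groups, with the replicate number beside each point. Bars are means and whiskers SD (n = 3). The IKBKB to CHUK ratios of NFKB1 S80A cells with TNFα (0.543 to 0.672) lie above all others, and the TAB2 to TAB3 ratios overlap in all groups.

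Across the core, the counts of genes past the threshold were read against those over all genes. For TNFα in WT cells 0 of 10 members passed by edgeR, against 0.688% of all genes, and 0 passed by DESeq2. There 1 member (IKBKB) was at an unadjusted edgeR p under 0.05, against 5.97% of all genes. For TNFα in NFKB1 S80A cells 1 of 10 passed, against 1.26% of all genes. For NFKB1 S80A against WT, 0 of 10 untreated passed by edgeR, against 6.26% of all genes, and 0 passed by DESeq2. Untreated, 2 members (RIPK1 and TAB2) were at an unadjusted edgeR p under 0.05, against 19.7% of all genes. Between the genotypes with TNFα 1 of 10 passed, against 7.36% of all genes. Averaged over the other factor, 1 of 10 passed for TNFα, against 2.17% of all genes (1.36% higher, 0.813% lower), and 2 of 10 for the genotype, 1 in each direction, against 16.7% (7.21% higher, 9.47% lower). No gene of the 14383 passed for the interaction (0%) by edgeR or by DESeq2, where 520 genes (3.62%) and 0 members were at an unadjusted p under 0.05. At an unadjusted p under 0.05 stood 1 member for TNFα in WT cells (5.97% of all genes), 1 in NFKB1 S80A cells (9.59%), 2 between untreated genotypes (19.7%), 3 with TNFα (22.3%), 2 for averaged TNFα (9.57%) and 4 for the averaged genotype (29.2%). Groups did not overlap for 3 members with TNFα in WT cells (12.7% of all genes), 2 in NFKB1 S80A cells (14.4%), 4 between untreated genotypes (25%) and 5 between genotypes with TNFα (26.2%).

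The differences within the core were small in size. The median log2 fold change of the 10 genes after TNFα was 0.03 for WT and 0.02 for NFKB1 S80A cells. Over all genes tested both medians were -0.00. For NFKB1 S80A against WT it was 0.13 untreated and 0.12 with TNFα, where the medians of all genes were 0.01 and -0.00. All 95% intervals of the 10 genes lay within 1 log2 unit of 0 in the 7 comparisons, from -0.68 (IKBKG with TNFα in WT cells) to 0.86 (IKBKG in the interaction). The comparisons of TNFα share their untreated samples with the comparison of untreated genotypes.

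**Figure D3:**
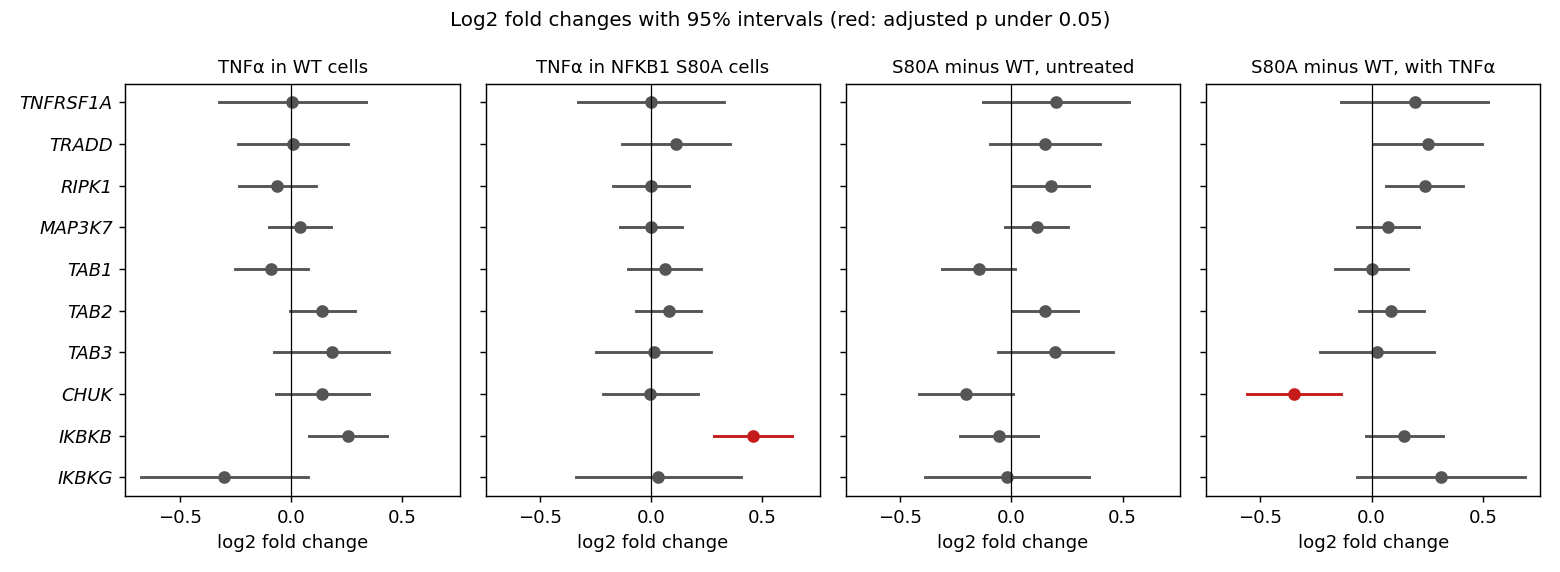
Log2 fold changes (horizontal axis) of the 10 genes in the 4 comparisons of a pair of groups, with 95% intervals. Red marks an adjusted p under 0.05 over all genes. The 2 red points are IKBKB with TNFα in NFKB1 S80A cells (0.46) and CHUK in NFKB1 S80A against WT cells with TNFα (-0.35).

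Levels were compared between genes as CPM (counts scaled to a common library total) per kilobase of exon, with the union of all exons of each gene in GENCODE v44 as its length. In untreated WT cells TAB2 (18.4 ± 0.135, SD, n = 3) led, followed by TAB1 (17.2 ± 0.494), CHUK (15.7 ± 0.443) and MAP3K7 (10.8 ± 0.114). The receptor TNFRSF1A was at 7.43 ± 0.578, RIPK1 at 4.86 ± 0.119, IKBKB at 3.81 ± 0.0678, TRADD at 3.44 ± 0.282 and TAB3 at 3.21 ± 0.141. IKBKG was listed lowest at 1.13 ± 0.245, with TAB2 at 16.3 times that value. Reads that also fit elsewhere may be missing from IKBKG, as given above, so its place and this ratio are uncertain. The ranges of IKBKB and TRADD overlapped, as did those of TRADD and TAB3, so these neighbours were not told apart by this length. The other neighbours had separate ranges. By the canonical transcript IKBKB (10.7) lay clear of TRADD (5.04) and TAB3 (6.07) in untreated WT cells. The longest transcript also set IKBKB (8.42) above TRADD (4.075) and TAB3 (5.05) there, with separate ranges.

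Of the 10 genes, 6 kept their rank of untreated WT cells in WT cells with TNFα, 7 in untreated NFKB1 S80A cells and 10 in NFKB1 S80A cells with TNFα, with IKBKB below TRADD and TAB3 in untreated NFKB1 S80A cells, where the ranges of these 3 genes overlapped. With TNFα, IKBKB reached 4.56 ± 0.0338 CPM per kilobase in WT cells, where its range met the next gene above, RIPK1 (4.66 ± 0.0943, ranges 4.53 to 4.59 and 4.59 to 4.76). With TNFα in NFKB1 S80A cells IKBKB was at 5.04 ± 0.449 and RIPK1 at 5.49 ± 0.249, with overlapping ranges. CHUK stood above TAB1 in WT cells with TNFα (17.4 ± 2.11 against 16.2 ± 1.04, overlapping) and below it in NFKB1 S80A cells with TNFα (13.6 ± 0.412 against 16.2 ± 0.136, separate). The order depends on the length used. By the canonical and by the longest transcript IKBKB stood above TRADD and TAB3 with separate ranges in every group, untreated NFKB1 S80A cells included. With the canonical transcript CHUK came first in WT cells, at 30.1 CPM per kilobase untreated, and TAB2 first in NFKB1 S80A cells, and 8, 4 and 4 genes kept their rank in the groups as ordered above. With the longest transcript 6, 7 and 5 did.

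**Figure D4:**
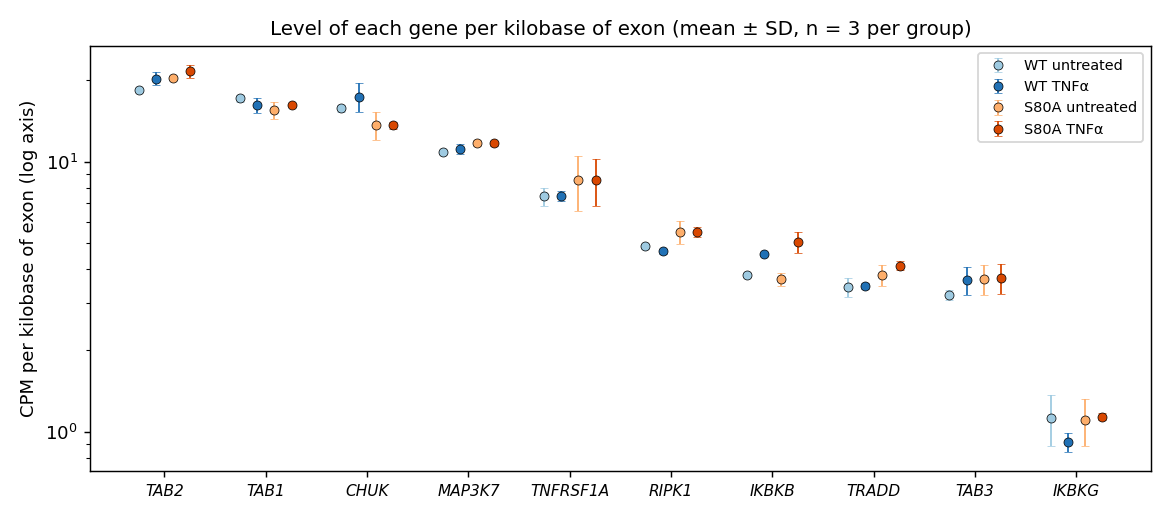
CPM per kilobase of exon (vertical log axis) of the 10 genes in the 4 groups, ordered by the level in untreated WT cells. Points are means and whiskers SD (n = 3). Levels run from 18.4 for TAB2 to 1.13 for IKBKG in untreated WT cells, and the mean of IKBKB is 4.56 in WT and 5.04 in NFKB1 S80A cells with TNFα.

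The wider pathway gave a frame for the core. Of 45 other genes of the pathway, its kinase and death branches included, 43 had enough reads to be tested. RIPK3, a kinase of the necroptosis arm, was at 0 counts in all samples, and TNFRSF1B, the other TNFα receptor, held 1 to 7 counts. With TNFα in WT cells 6 of the 43 rose and 0 fell, where 0.577% of all genes rose and 0.111% fell. In NFKB1 S80A cells 9 rose and 1 fell, where 0.966% of all genes rose and 0.292% fell. The list was chosen with earlier results of these data known and holds NFKBIA and TNFAIP3 as known TNFα-induced genes. A share of risen genes above that of all genes was therefore built in, and these counts are a description and not a test.

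The genes that rose with TNFα were inhibitors and ubiquitin editors of the pathway and NF-κB subunits. NFKBIA, which encodes IκBα, had 426 to 453 normalised counts in untreated WT samples and 4531 to 5408 with TNFα, and 475 to 551 and 6200 to 7156 in NFKB1 S80A cells. Its log2 fold changes were 3.52 (SE 0.10, edgeR adjusted p = 1.58e-11) and 3.66 (SE 0.10, adjusted p = 6.55e-12). TNFAIP3, a ubiquitin editor that restrains the receptor complex, rose on the log2 scale by 3.14 in WT and by 3.86 in NFKB1 S80A samples. OPTN, a ubiquitin-binding protein, rose by 1.13 and 1.21. NFKB1 itself rose by 1.27 and 1.56. CYLD, which removes ubiquitin chains, rose by 0.61 and 0.48, and TNIP1, a partner of TNFAIP3, by 0.39 and 0.59. BIRC3, a ubiquitin ligase measured from only 2 to 29 counts, NFKBIE (0.59) and RELA (0.36) passed in NFKB1 S80A cells, as did MAP2K6, a kinase of the p38 branch, which fell by 0.65. None of the 43 passed for the interaction (TNFAIP3, the 1 gene with an unadjusted p under 0.05, had 0.72, SE 0.20, adjusted p = 0.911). The log2 rise of IKBKB in NFKB1 S80A cells, 0.46, stood beside those of CYLD (0.48) and RELA (0.36) in the same cells.

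Between the genotypes 3 of the 43 genes were lower untreated and none higher, where 4.21% and 2.05% of all genes were. With TNFα 4 were lower and 3 higher, where 4.44% and 2.92% of all genes were. IKBKE, the IKK-related kinase gene, held 50.1 to 75.6 normalised counts in the 6 WT samples and 3.54 to 19.9 in the 6 NFKB1 S80A samples, with log2 differences of -2.73 (SE 0.43, edgeR adjusted p = 0.00181) untreated and -2.17 (SE 0.42, adjusted p = 0.00678) with TNFα. The p38 branch kinases MAP2K3 (-0.40 and -0.29) and MAP2K6 (-0.90 and -1.03) were lower in both. With TNFα the JNK gene MAPK8 was lower (-0.34), and TNFAIP3 (0.68), NFKBIA (0.39) and MAPKAPK2 (0.31), a kinase activated by p38, were higher. CHUK, lower by 0.35 with TNFα, thus stood beside MAPK8 in size and far from IKBKE.

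**Figure D5:**
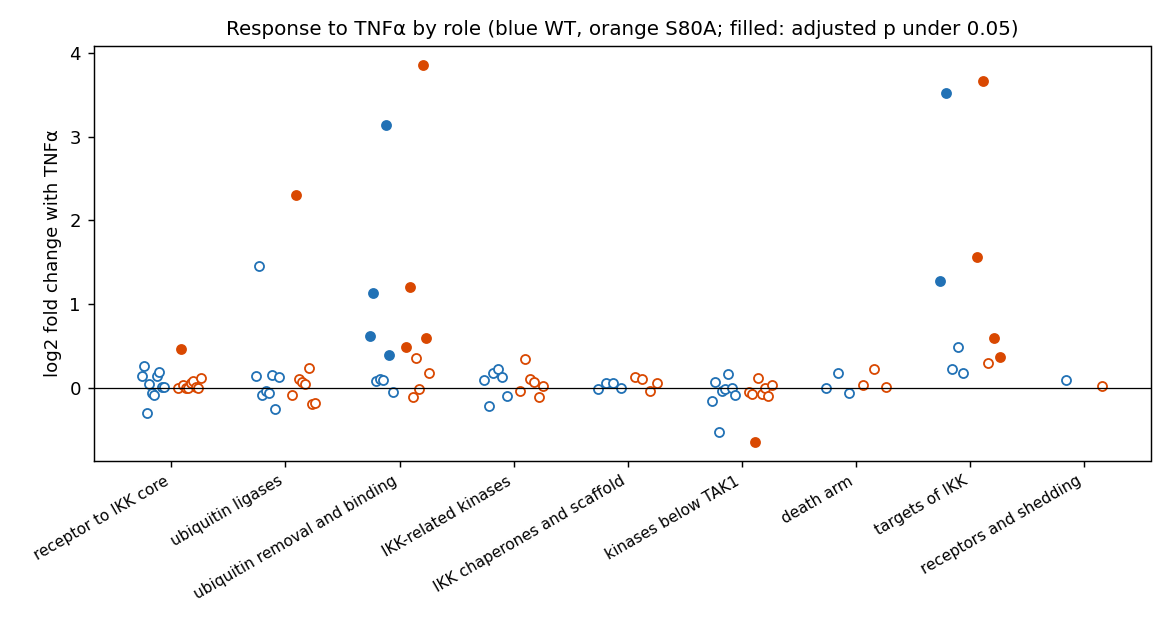
Log2 fold change with TNFα (vertical axis) of the 10 core genes and of the 43 other pathway genes tested, grouped by role (horizontal axis), in WT (blue) and NFKB1 S80A cells (orange). Filled points have an adjusted p under 0.05. The core holds 1 filled point, IKBKB in NFKB1 S80A cells, and the highest points belong to TNFAIP3 (3.86) and NFKBIA (3.66).

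The pattern of each of the 3 members that passed a test was compared with that of 13057 genes with a mean of at least 1 CPM, by Pearson's r of log2 CPM over the 12 samples. These are descriptions over samples that share their library and group. RIPK1 was most like MAPKAPK2 (r = 0.979), MEIS3 (0.978) and PDE8A (0.973). CHUK was most like ECT2 (0.962), DHX36 (0.961) and MTHFD2 (0.960). IKBKB was most like IRAK2 (0.968), IGSF3 (0.966) and JUNB (0.964). Among the members CHUK and RIPK1 ran opposite to each other (r = -0.907), MAP3K7 and TAB2 ran together (0.803), and IKBKB and CHUK were nearly unrelated (-0.0366).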

How the data were processed

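Poly(A) RNA libraries (TruSeq stranded, NextSeq 500, single-end 75 bp) were made from 12 samples. The authors aligned reads to GRCh38 with HISAT, assigned them to genes with HTSeq-count and deposited the unscaled counts, with gene symbols as identifiers. Tool versions, strand setting and annotation release were not given in the sources used here. The deposited lists of fold changes, p-values and normalised signal for genes past the authors' threshold were not used. Of 33121 genes, 28 whose symbols and counts in 2 samples had become dates were left out.

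Counts were analysed with edgeR 4.0.16 in R 4.3.3 (TMM, filterByExpr with minimum count 10, 1 mean per group, quasi-likelihood test). For display, each count was divided by its TMM-adjusted library total and brought to the mean of those totals (normalised count). Ratios were tested by two-sided exact permutation. The edgeR and DESeq2 steps were tested on simulated data for the comparison of TNFα in WT cells only. The ratio tests, the GC correction and the motif search were not tested in this way. Positions, lengths and GC content came from GENCODE v44, promoter windows from RefSeq. Members, lists and named genes (all members, other pathway genes past the threshold, and the 3 genes most like each member that passed a test) were chosen with earlier results of these data known. The sources call the replicates independently generated, without saying from what, so p-values measure the spread between these samples. Depth limits TRADD and IKBKG most. WT TNFα replicate 3 carries the description of replicate 2, and its title was used. Alternatives were DESeq2 1.42.0, other scalings and filters, the replicate number as a block, fits of the compared groups alone, each sample left out and, added after seeing the data, GC correction with and without the block.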

Additional observations from a re-analysis of the deposited data

How the results depend on the processing

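Of 1440 values of members under 21 alternatives, 1411 stayed on the same side of the threshold, 19 lost and 10 gained a call, and none that was called changed sign, while 99 uncalled values did. Most of the 1440 had no call to lose. The CHUK call with TNFα held in 3 of 12 fits that left out 1 sample and in 8 of 9 other alternatives. The averaged RIPK1 call held in 6 of 12 and 7 of 8, and the IKBKB call in NFKB1 S80A cells in 11 of 12 and 8 of 9. The averaged calls of IKBKB and CHUK held in all. With DESeq2, TNFα in WT cells called 158 genes, and 2 members passed between genotypes with TNFα. With DESeq2 size factors 0 members passed there (CHUK adjusted p = 0.0529). Without a filter on low counts 1 member passed for the averaged genotype (RIPK1 adjusted p = 0.0523). With only the groups compared, 71 genes and 0 members passed for TNFα in NFKB1 S80A cells and 456 genes between untreated genotypes. With GC correction 1 member passed untreated and 2 with TNFα. Leaving out 1 sample gave 65 to 145 genes for TNFα in WT cells, 98 to 193 genes and 0 to 1 members in NFKB1 S80A cells, 356 to 1039 genes and 0 members between untreated genotypes and 434 to 1646 genes and 0 to 2 members with TNFα. For the averages it gave 221 to 356 genes and 1 member for TNFα, and 1798 to 3073 genes and 1 to 2 members for the genotype, and 0 genes and members for the interaction. It moved the log2 ratio of IKBKB to CHUK between 0.02 and 0.20, 0.32 and 0.56, 0.05 and 0.29, and 0.39 and 0.59 for TNFα in WT, TNFα in NFKB1 S80A, untreated genotypes and genotypes with TNFα, and that of TAB2 to TAB3 between -0.10 and 0.00, -0.03 and 0.18, -0.15 and 0.02, and -0.03 and 0.17. The cause of these shifts was not tested beyond the fewer samples fitted.

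The replicate numbers were not taken to pair the samples, because the methods of the study name no block. Deviations from group means of same-numbered samples correlated at 0.118 on average (18 pairs, -0.0989 to 0.495), and 9 of the 18 were over 0.1. Differently numbered samples gave -0.059 (36 pairs, 6 over 0.1). Deviations cancel out within a group, so this average largely follows from the first and is no separate evidence. All 6 pairs of replicate 1 were over 0.1 (0.116 to 0.495), against 1 of 6 for replicate 2 and 2 of 6 for replicate 3, and 6 of 12 samples correlated best with their own number, a hint from the data and not the design. With the replicate number as a block 113, 208, 1232, 1469, 0, 397 and 2857 genes passed for TNFα in WT, TNFα in NFKB1 S80A, genotypes untreated, genotypes with TNFα, the interaction, averaged TNFα and the averaged genotype, and the same numbers of members as without it. With the block and GC correction together 278 genes passed for TNFα in NFKB1 S80A cells, 1563 genes and 1 member between untreated genotypes, 1598 genes and 2 members with TNFα, 509 genes for averaged TNFα and 4 members for the averaged genotype (CHUK, RIPK1, TAB2 and TNFRSF1A, the last with adjusted p = 0.0411). Counts of 72 to 185 limit IKBKG and TRADD.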
